A study of Mus musculus with 34 samples.

Results

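The H3K27ac regions of bone marrow-derived dendritic cells (BMDCs) were compared between CTCF-WT and CTCF-KO cells after LPS. Peaks at most 500 bp apart were merged within each of 2 deposited lists, and a region was classed as shared when it met at least 1 bp of a region of the other list. The WTLPS list held 53081 regions, of which 22451 were shared and 30630 were found in WTLPS only. The KOLPS list held 48278 regions, of which 28556 were shared and 19722 were found in KOLPS only. Joined into loci, the lists gave 71522 loci, of which 21170 (29.6%) were shared, 42.8% were WTLPS only and 27.6% were KOLPS only.

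Bone marrow of C57BL/6 mice 8 weeks old was cultured for 6 days, and GM-CSF was added to turn the precursors into dendritic cells. CTCF-WT cells carried CreER, a Cre recombinase that acts after tamoxifen, and CTCF-KO cells carried CreER together with CTCF fl/fl. The labels give 1 culture protocol for both, in which 4-OH tamoxifen was present on the first day to delete Ctcf. Per the study's methods CreER was expressed from Rosa26, which is not limited to 1 cell type. LPS, which activates TLR4, was used for 3 h at 100 ng/ml. Each condition and antibody had a single list, and whether it holds 1 culture or several is not given in the labels, so no difference between genotypes could be tested against replicates. The intervals in parentheses are 95% Wilson intervals, which cover counting error only.

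H3K27ac, the acetylation of lysine 27 of histone H3, marks active promoters and enhancers. CTCF is a zinc finger protein that stops the loop extrusion of cohesin, the ring complex of which SMC1 is a subunit, and so sets which enhancers and promoters are brought near each other. p65 (RelA) is the NF-κB subunit that enters the nucleus after TLR4 signalling and recruits acetyltransferases to the enhancers of inflammatory genes. In dendritic cells this acetylation accompanies the induction of cytokines, chemokines and costimulatory molecules.

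Sites at H3K27ac regions listed in 1 genotype alone are shown first as sequence, as examples where such a region met a factor peak. Each window of 200 bases is centred on the factor's summit, lies in an intron or outside genes, and is given on the plus strand of GRCm38 (mm10), with matches to the motif in capitals. They were chosen after the values were seen, and 1 chromosome was left out of the choice. Among the rest, the regions of highest −log10 q that met a factor peak with a motif within 60 bases of its summit were taken. The summit lay at most 250 bp outside the region. At the first 3 sites the region was WTLPS only and met a WTLPS p65 peak without a KOLPS one, and the capitals mark NF-κB words (GGGANTTCC or GGAANTTCC on either strand). At the next 2 the region was WTLPS only and met a WTLPS CTCF peak without a KOLPS one, and the capitals mark CTCF words (CNAGGGGGC, CNAGGTGGC or CNAGATGGC on either strand). At the last the region was KOLPS only with a KOLPS p65 peak, and a lack of WTLPS p65 peaks was not required. Such words were uncommon, so the printed sites are not typical of these peaks. NF-κB words lay within 60 bases of the summit at 14 of 231 (6.06%) WTLPS p65 peaks in WTLPS-only regions and at 9.82% in shared ones. CTCF words lay at 183 of 2120 (8.63%) WTLPS CTCF peaks in WTLPS-only regions and at 8.34% in shared ones. For KOLPS p65 peaks in KOLPS-only regions, NF-κB words lay at 2 of 74 (2.70%).
Ctsc site, chr7:88215127-88215326: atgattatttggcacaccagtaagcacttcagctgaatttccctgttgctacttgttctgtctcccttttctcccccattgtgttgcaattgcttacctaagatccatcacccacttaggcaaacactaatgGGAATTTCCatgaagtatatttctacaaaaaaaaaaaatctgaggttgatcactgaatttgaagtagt
Ifnk site, chr4:35146430-35146629: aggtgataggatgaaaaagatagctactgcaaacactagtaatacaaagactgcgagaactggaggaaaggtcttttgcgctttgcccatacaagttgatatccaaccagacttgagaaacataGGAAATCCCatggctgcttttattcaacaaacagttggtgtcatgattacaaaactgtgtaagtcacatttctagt
Kcnj12 site, chr11:61029557-61029756: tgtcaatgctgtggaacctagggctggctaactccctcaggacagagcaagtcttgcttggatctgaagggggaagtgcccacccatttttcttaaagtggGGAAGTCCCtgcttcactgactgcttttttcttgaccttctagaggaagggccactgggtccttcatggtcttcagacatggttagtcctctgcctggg
Gm20671 site, chr5:32785740-32785939: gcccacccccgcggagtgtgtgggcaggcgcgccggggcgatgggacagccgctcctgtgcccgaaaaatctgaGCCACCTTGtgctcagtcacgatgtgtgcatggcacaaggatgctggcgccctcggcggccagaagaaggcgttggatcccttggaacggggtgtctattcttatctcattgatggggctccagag
Rad51b site, chr12:79612764-79612963: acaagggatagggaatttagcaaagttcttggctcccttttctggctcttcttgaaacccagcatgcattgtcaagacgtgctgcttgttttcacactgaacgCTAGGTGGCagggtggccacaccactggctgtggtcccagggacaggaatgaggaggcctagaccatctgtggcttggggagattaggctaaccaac
Klf2 site, chr8:72322496-72322695: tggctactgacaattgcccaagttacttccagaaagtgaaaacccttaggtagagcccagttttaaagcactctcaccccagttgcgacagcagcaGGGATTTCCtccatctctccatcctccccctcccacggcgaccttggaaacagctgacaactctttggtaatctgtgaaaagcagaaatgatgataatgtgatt
The site named for Ctsc, the gene of the lysosomal protease cathepsin C, lay outside genes, in a region 61762 bp from the Ctsc start. That region spanned 6913 bp, with 7.74-fold H3K27ac enrichment in WTLPS and a p65 peak of 9.70-fold. The site near Ifnk lay in an intron of Mob3b, with a p65 peak of 8.62-fold in a region 5343 bp from the start of the gene for interferon kappa. The site at Kcnj12 was weak, with 5.01-fold H3K27ac and 4.31-fold p65 enrichment. Its p65 summit and motif lay outside the region, which only the end of the printed window reached. Both CTCF sites lay in introns. The peak in Rad51b, which codes for a homologous recombination protein, reached 15.4-fold with its summit outside the region it met. The printed Rad51b window, with its motif, lies wholly beside that region. The KOLPS-only region, of 268 bp, lay 3307 bp from the start of Klf2, a transcription factor that restrains myeloid inflammation. Its p65 peak reached 12.1-fold but met the region by only 2 bp, and the printed window lies beside the region.

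Regions found in 1 genotype were mostly narrow and weak. The median width was 301 bp for WTLPS-only and 173 bp for KOLPS-only regions, against 1377 bp for shared regions in WTLPS and 656 bp in KOLPS. Widths are not on 1 scale, as the shortest peak was 174 bp in WTLPS and 121 bp in KOLPS. The median peak was 392 and 242 bp. The median −log10 q was 3.27 and 3.28 in the regions of 1 list, against 7.85 and 5.95 in the shared ones. Only 19.5% of WTLPS-only and 16.5% of KOLPS-only regions reached a −log10 q of 5, against 70.2% and 61.3% of the shared ones. With WTLPS regions in 10 equal groups by −log10 q, 13.2% (12.3 to 14.1) were shared in the weakest group and 98.2% (97.8 to 98.5) in the strongest. The corresponding shares of KOLPS regions were 23.8% and 99.1%.

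**Figure D1:**
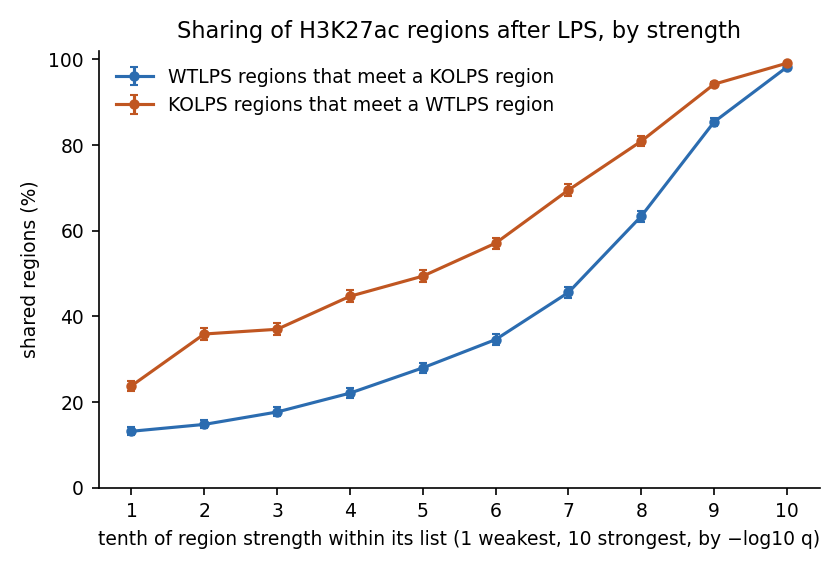
Share of H3K27ac regions (%) that meet a region of the other genotype after LPS, in 10 equal groups of region strength within each list, with 95% Wilson intervals. The share rises from 13.2 to 98.2% in WTLPS regions and from 23.8 to 99.1% in KOLPS regions.

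The libraries themselves differed. Shared bases made up 45.0% of the bases covered in WTLPS and 74.8% of those covered in KOLPS, since WTLPS regions covered 66.8 Mb and KOLPS regions 40.2 Mb. The background level recovered from the peaks was 1.20 fragments per base in WTLPS and 0.801 in KOLPS. When WTLPS fragments were thinned by that ratio of 0.669, 91.7% of WTLPS-only regions kept a chance of at least 0.5 of being called and 19.4% a chance of at least 0.95. Near misses were common, as 14% of WTLPS-only and 24.9% of KOLPS-only regions lay within 500 bp of a region of the other list.

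GC content also moved with the genotype. The median GC content of 300 bases at the summit was 44.0% in shared, 38.3% in WTLPS-only and 45.0% in KOLPS-only regions. In 5 equal groups by GC content, 20.2% of WTLPS regions were shared in the lowest and 70.6% in the highest group. KOLPS regions showed no such rise over the lower groups, with 60.2% in the lowest, 55.5% in the fourth and 69.1% in the highest. Library and chromatin differences in base composition cannot be told apart with 1 list per condition.

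CTCF, SMC1 and p65 peaks were each more frequent in shared regions than in regions of 1 genotype. WTLPS CTCF peaks lay in 16.8% (16.3 to 17.3) of shared, 7.03% (6.75 to 7.32) of WTLPS-only and 5.91% (5.59 to 6.24) of KOLPS-only regions. WTLPS SMC1 peaks lay in 48.6%, 12.6% and 9.37% of the same classes, and WTLPS p65 peaks in 14.2%, 0.748% and 0.593%. In the KOLPS lists of these factors all shares were smaller. KOLPS CTCF peaks lay in 5.18% of shared, 1.41% of WTLPS-only and 1.37% of KOLPS-only regions, KOLPS SMC1 peaks in 31.5%, 3.00% and 3.47%, and KOLPS p65 peaks in 5.48%, 0.0490% and 0.330%. Shared regions were also wider, as given above, and the part of width in these shares was not tested.

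**Figure D2:**
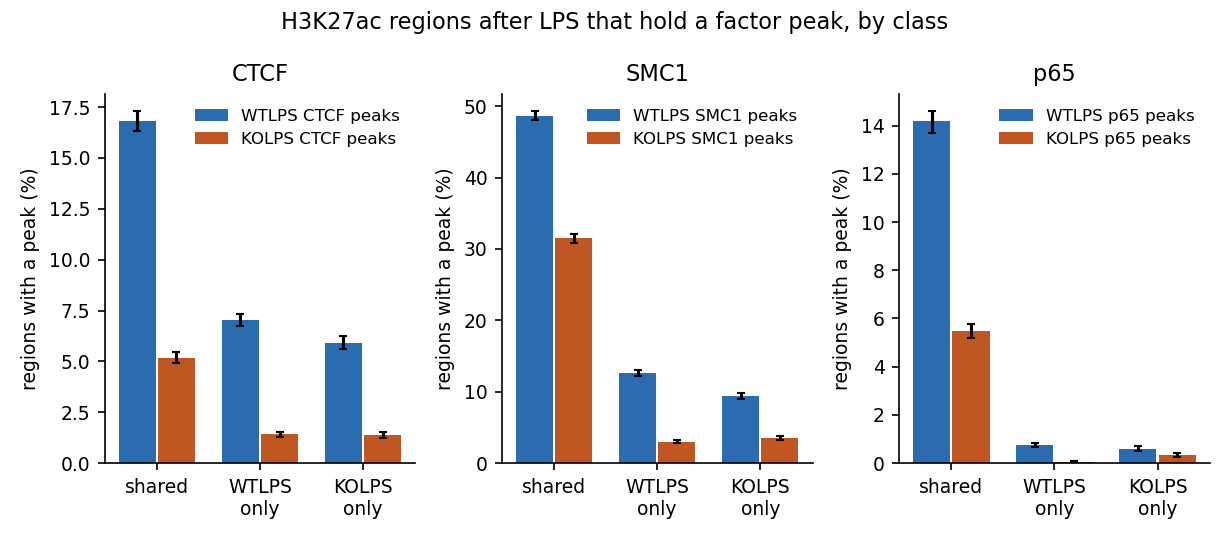
Share of H3K27ac regions (%) in each class that hold a CTCF, SMC1 or p65 peak of WTLPS or KOLPS, with 95% Wilson intervals, each panel on its own linear axis from 0. In every panel the shared class is highest, with 48.6% for WTLPS SMC1 and 14.2% for WTLPS p65.

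Most WTLPS regions that lost p65 still met an acetylated region in KOLPS. Of 2397 WTLPS regions whose p65 peak had no KOLPS counterpart in the region, 2179 (90.9%, 89.7 to 92.0) were shared. These regions were wide, with a median of 3337 bp, so sharing does not show that the p65 site itself stayed acetylated. Of all 5465 WTLPS p65 peaks, 3450 (63.1%) met H3K27ac regions of both genotypes and 743 (13.6%) met a WTLPS region alone. Of 1014 regions with p65 in both genotypes 98.9% were shared, and of 49670 regions without WTLPS p65 38.8%. Where SMC1 was lost, 59.0% (57.9 to 60.1) of 7696 regions were shared, against 90.1% of 7081 regions that kept it. Where CTCF was lost, 61.0% of 4741 regions were shared, against 74.3% of 1180 regions that kept it. Regions that kept SMC1 were also wider (median 2950 against 1036 bp) and stronger (median −log10 q 14.4 against 6.47). Regions that kept CTCF were wider too, with a median of 1624 against 1262 bp, and stronger. The part of width and strength in these differences between kept and lost peaks was not tested.

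At like region strength the difference between regions with and without a WTLPS factor peak was small for CTCF and wider for SMC1 and p65. For SMC1 and p65 it was narrower in the strongest group than in the fourth. In 5 equal groups by −log10 q, WTLPS regions with a CTCF peak were shared in 17.4, 20.4, 35.3, 59.2 and 94.5% of cases from the weakest to the strongest, and those without in 13.8, 19.9, 31.0, 53.9 and 90.9%. For SMC1 the shares were 29.1 against 12.7% in the weakest, 70.1 against 46.6% in the fourth and 95.4 against 84.3% in the strongest group. For p65 they were 68.1 against 19.5% in the second, 84.0 against 52.9% in the fourth and 98.4 against 89.7% in the strongest group. The regions with p65 numbered 94, 526 and 2576 in these groups. In 5 equal groups by width, the p65 shares were 43.4 against 17.6% in the second and 98.0 against 88.0% in the widest. Strength and width were not matched together. Of the 849 regions that held all 3 factors 97.2% were shared, and of the 36656 that held none 29.4%.

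WTLPS regions without a peak in unstimulated WT cells were shared less often than those with one. Of 23007 such regions 14.7% (14.2 to 15.1) were found in KOLPS, against 63.4% (62.9 to 64.0) of 30074 regions already listed in WT. The regions without a WT peak were also narrower (median 279 against 990 bp) and weaker (median −log10 q 3.27 against 6.86), and the part of this in the difference was not tested. The 398 regions without an unstimulated peak that held p65 stood apart, with 70.1% (65.4 to 74.4) shared. Their median width of 1249 bp compares with 276 bp for the 22609 regions without p65. Among WTLPS-only regions 59.6% had no unstimulated peak in either genotype and 23.7% had one in WT alone. Among KOLPS-only regions 55.9% had none and 16% had one in KO alone, while 76.2% of shared regions had one in both.

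The marks of promoters and enhancers separated the classes further. H3K4me3, the promoter mark, lay in 44.5% of shared, 9.03% of WTLPS-only and 11.8% of KOLPS-only regions in the WTLPS list. H3K4me1, which marks enhancers as well, lay in 86.8%, 71.2% and 66.6%. H3K27me3, the Polycomb mark of silent genes, was rare in all classes at 1.24%, 2.78% and 2.74%. Promoters of annotated genes, within 2.5 kb of the start, took 41.2% of shared, 15.2% of WTLPS-only and 19% of KOLPS-only regions. Introns held 46.5% of WTLPS-only and 44.5% of KOLPS-only regions.

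Short motifs differed modestly between the classes, and only the AP-1 and STAT words were at like rates in shared and WTLPS-only windows. The AP-1 word TGANTCA lay in 9.06% of shared, 9.05% of WTLPS-only and 10.2% of KOLPS-only windows of 300 bases, and in 9.38% of all. The IRF word GAAANNGAA, which is rich in adenine, lay in 11.7% (11.3 to 12) of WTLPS-only and 7.27% (6.92 to 7.64) of KOLPS-only windows, and in 7307 of 72803 windows of all classes. The PU.1 word GAGGAAGT lay in 2.34% of shared, 1.51% of WTLPS-only and 2.08% of KOLPS-only windows, with 1.92% over all. The NF-κB words lay in 1.68% (1.52 to 1.86) of shared, 1.18% (1.06 to 1.30) of WTLPS-only and 1.29% of KOLPS-only windows, with 1.36% over all. The CTCF words lay in 2.56%, 1.74% and 2.72%, with 2.26% over all. The C/EBP word TTGCNNAA lay in 11.2%, 12.9% and 11.5%, with 12% over all, and the MiT/TFE word TCACGTGA in 0.361%, 0.170% and 0.309%, with 0.266% over all. The STAT word TTCCNNGAA lay in 4.41%, 4.42% and 4.12%, with 4.33% over all. The GC contents given above move with these shares, and their part in them was not tested.

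Promoters that were acetylated at all were mostly so in both genotypes. Of 21938 protein-coding genes, 8121 (37.0%) had H3K27ac at the promoter in both lists, 936 (4.27%) in WTLPS only, 829 (3.78%) in KOLPS only and 12052 in neither. The 4.27% and 3.78% are the background against which each gene list below is read. In 37 of the 936 and 24 of the 829 genes the region met the other list beyond the promoter, so that only its edge differed. This held for the strongest cases, Mthfsl and Plgrkt (45.3- and 42.8-fold in WTLPS) and Med29 and Paf1 (26.7-fold in KOLPS). CTCF peaks lay at 40.4% of promoters acetylated in both lists, 37.9% of WTLPS-only and 35% of KOLPS-only ones in WTLPS cells, and at 17.0% of promoters with no H3K27ac.

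Where the promoter region itself was found in 1 list, chosen after the values were seen, the strongest WTLPS-only genes included Nr6a1, an orphan nuclear receptor (14.6-fold), Serpinb6b, a serine protease inhibitor (11.8-fold), Nr4a2, an immediate early nuclear receptor (9.56-fold), Cxcl5, a neutrophil chemokine (9.56-fold) and Arhgap15, a Rac GTPase-activating protein (8.65-fold). The strongest KOLPS-only genes included Ak8 and Spaca9, which share a region (12.8-fold), Cd33, a sialic acid-binding inhibitory receptor (9.44-fold), Elavl4, a neuronal RNA-binding protein (9.44-fold), and Tbkbp1, an adaptor of TBK1 (9.44-fold).

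Promoters of 9 of 12 dendritic and myeloid markers were acetylated in both genotypes, among them Itgax, Zbtb46, H2-Ab1, Ciita and Spi1, and Flt3, Cd209a and Clec10a had no promoter region in either. None of 7 erythroid and 8 mast cell or basophil promoters was acetylated, and 1 of 11 lymphocyte promoters (Lck). Of 10 macrophage markers 4 were acetylated in both and C1qc in KOLPS only. Of 10 neutrophil markers Camp was acetylated in both and S100a8 and Mmp8 in KOLPS only. In bulk ChIP, fewer cells of a type and less acetylation per cell cannot be told apart.

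The amount of acetylated chromatin near genes was measured as the bases covered by regions within 100 kb of the start. It was compared as a log2 ratio of KOLPS to WTLPS with 1000 bases added to each. The median ratio over 14331 genes was −0.50, or 0.709-fold, and values are given relative to it. Peak widths differed between the 2 lists, as given above, and their part in the ratios was not tested. A gene was called when it lay 2-fold or more from that median, which is a size and not a test. On this measure 1195 genes (8.34%) were lower and 533 (3.72%) higher in KOLPS. Neighbouring genes share much of a window, so these counts and those below hold fewer loci than genes. For example, Eloc, Tmem70 and Ly96 each had 44396 bases in WTLPS and 9864 in KOLPS.

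These calls moved with GC content. With genes in 5 equal groups by GC content, 23.5% were called lower and 1.12% higher in the lowest group, and 0.523% and 7.89% in the highest. The median log2 ratio, not set against the median gene, was −1.0 in the lowest and −0.09 in the highest group. In the unstimulated lists it was −0.58 and −0.10, a smaller step in the same direction. Set against genes of like GC content, in an alternative added after the data were seen, 683 genes were lower and 481 higher, and 614 of the 1195 and 313 of the 533 kept their call.

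**Figure D3:**
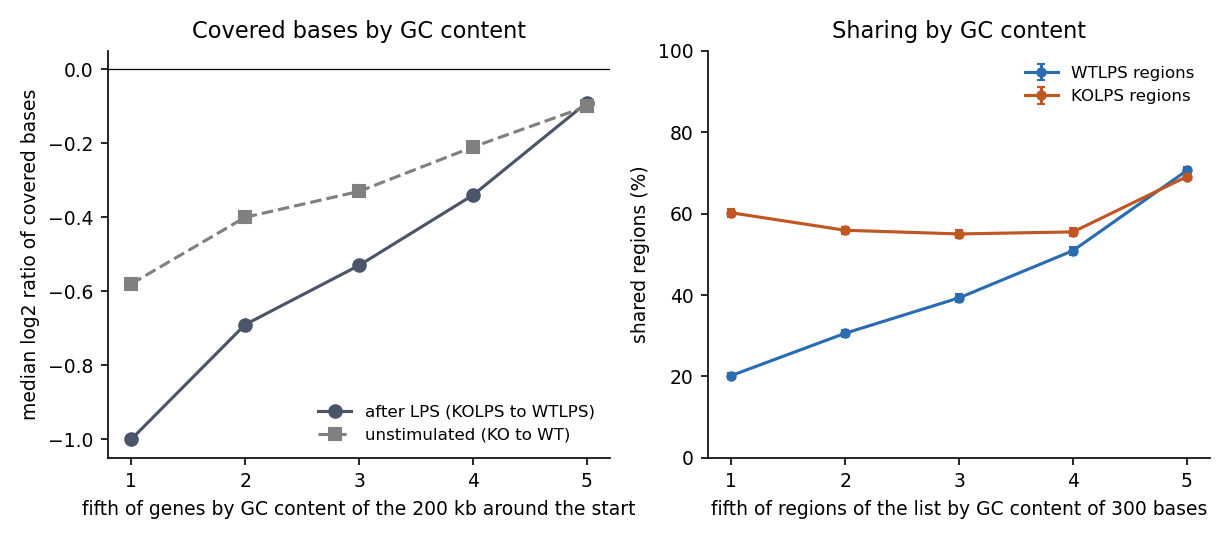
Left, median log2 ratio of H3K27ac-covered bases in 5 equal groups of genes by GC content, after LPS (circles) and unstimulated (squares). Right, share of regions found in the other list (%) in 5 equal groups by GC content, with 95% Wilson intervals. The gene median moves from −0.69 in the second to −0.09 in the highest group after LPS, and the shared WTLPS regions from 20.2 to 70.6%.

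The unstimulated lists gave the same measure in libraries that the classes did not use. There 6.50% of genes were lower and 2.61% higher in KO. Of the genes lower after LPS, 1068 were measured without LPS and 520 (48.7%) were lower there too, against 6.35% of all genes measured in both. Of the genes higher after LPS, 96 of 518 (18.5%) were higher there, against 2.05%. The unstimulated ratios moved with GC content in the same direction but less, as given above, and its part in these shares was not tested.

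**Figure D4:**
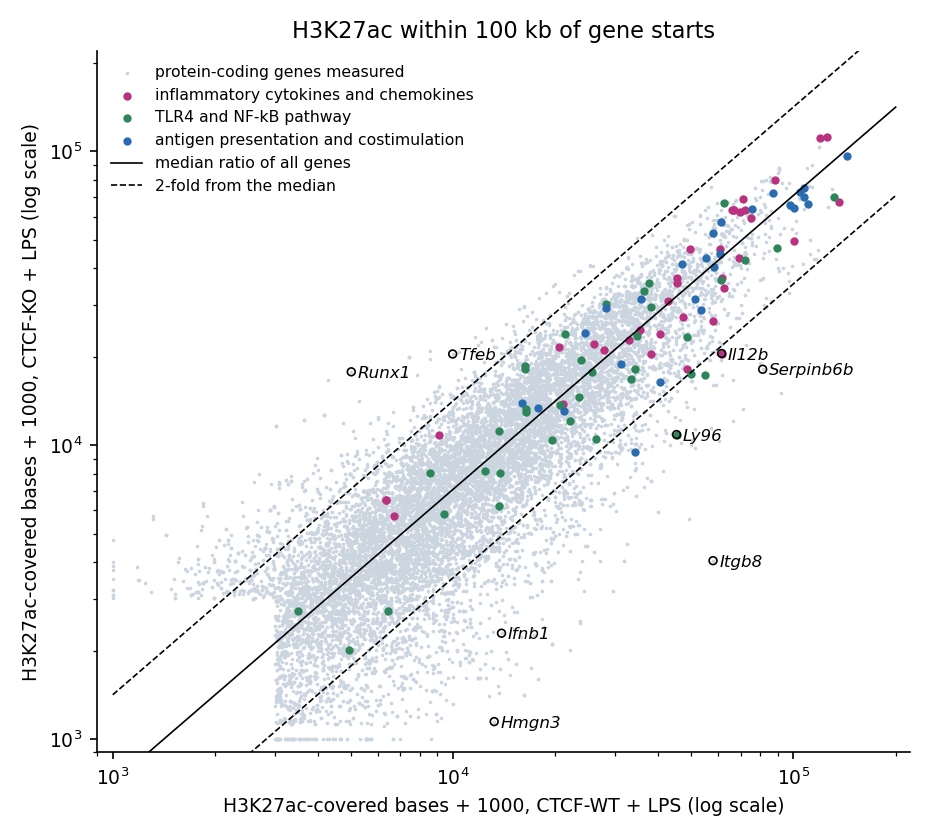
Bases covered by H3K27ac regions within 100 kb of each protein-coding start, with 1000 added, in CTCF-WT + LPS and CTCF-KO + LPS cells (both axes log). Grey points are all genes measured and coloured points 3 gene lists, the solid line is the median ratio and the dashed lines lie 2-fold from it. Cytokine and chemokine genes lie mostly between the dashed lines, while Itgb8, Ifnb1 and Ly96 lie below and Runx1 and Tfeb above.

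Among genes with at least 10000 covered bases the lowest relative ratio lay at Itgb8 (chr12:119158022-119238802), the integrin chain with which dendritic cells activate latent TGF-β. H3K27ac covered 57107 bases around its start in WTLPS and 3045 in KOLPS, a relative log2 ratio of −3.35. Without LPS it covered 5082 bases in WT and 3382 in KO, so a domain of this extent was listed in LPS-treated CTCF-WT cells alone. There were 44 regions in WTLPS, the longest of 15877 bp, and 12 in KOLPS, the longest of 511 bp. In the same window 7 p65 peaks were listed in WTLPS and 1 in KOLPS, 26 and 6 SMC1 peaks, and 8 and 0 CTCF peaks. The whole lists were shorter in KOLPS too, with 5465 and 1752 p65, 57354 and 17241 SMC1 and 54020 and 11576 CTCF peaks, and whether the locus differs from that was not tested. The window is poor in GC (38.2%), and the difference from genes of like GC content was −2.60.

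Runx1 (chr16:92601466-92826149), a transcription factor of blood development, had the reverse order. H3K27ac covered 4023 bases in WTLPS and 16769 in KOLPS, a relative log2 ratio of 2.32 and of 2.31 against genes of like GC content. Unstimulated cells carried 19829 bases in WT and 30545 in KO, so covered bases were fewer after LPS in both genotypes, and fewest in WTLPS. SMC1 peaks numbered 13 in WTLPS and 6 in KOLPS, and CTCF peaks 2 and 0.

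**Figure D5:**
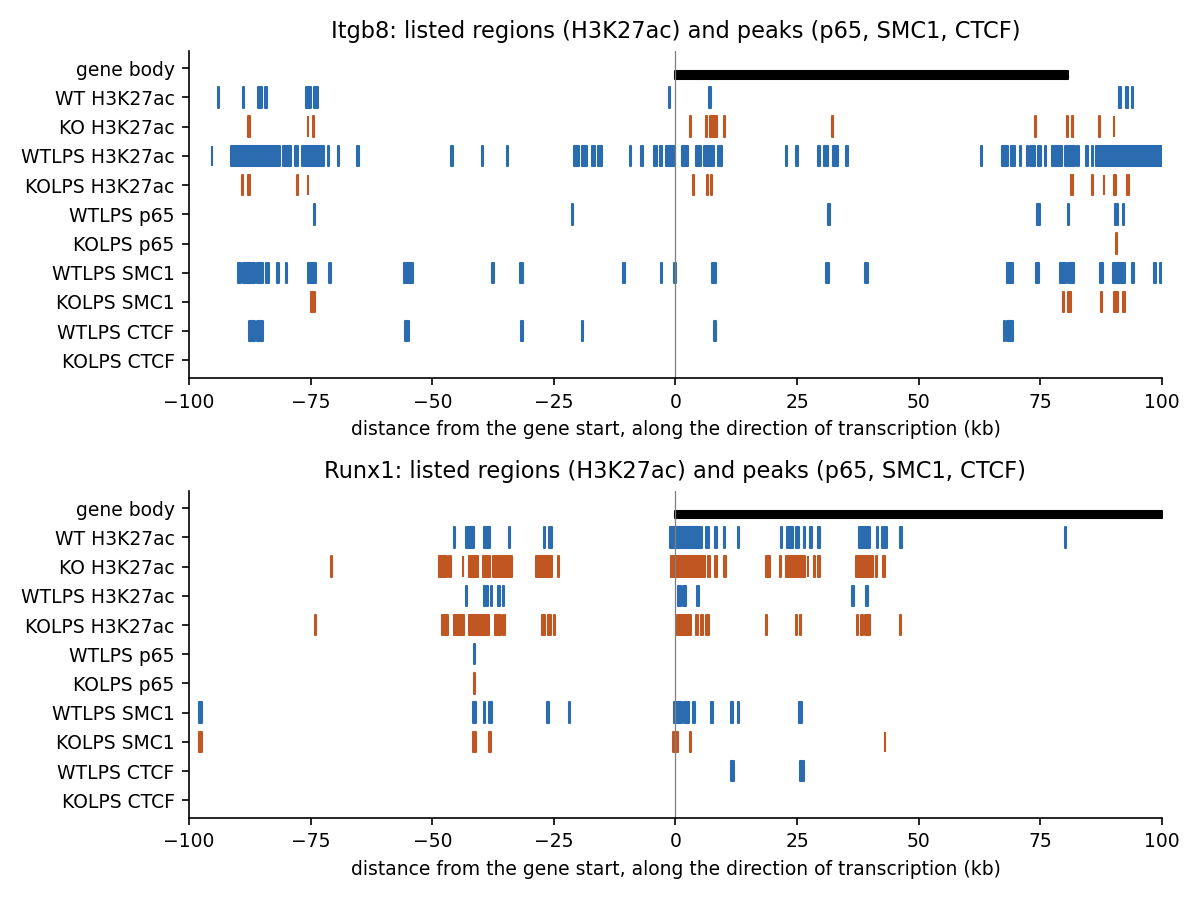
H3K27ac regions and p65, SMC1 and CTCF peaks within 100 kb of the starts of Itgb8 (top) and Runx1 (bottom), by distance along the direction of transcription, blue for CTCF-WT and orange for CTCF-KO lists. At Itgb8 the WTLPS track holds 44 regions against 12 in KOLPS, and at Runx1 10 against 20.

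The next lowest ratios included Hmgn3, a nucleosome-binding protein (12216 bases in WTLPS and 146 in KOLPS), Thbs4, a thrombospondin (15208 and 411), Itga1, the integrin chain of a collagen receptor (22574 and 1478), Arhgef6, a Rac and Cdc42 exchange factor (21067 and 1014), Fut8, the core fucosyltransferase (12695 and 431), and Gfi1, a repressor of myeloid genes (28469 and 2201). Insm1, Rpa3 and Prdm8 completed the 10 lowest. Of these 10, Hmgn3, Thbs4, Insm1, Itga1, Rpa3, Gfi1 and Prdm8 were called lower without LPS too. All 10 stayed past 2-fold against genes of like GC content.

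The highest ratios, beside Runx1, rested on fewer bases than the ratio at Itgb8. They lay at Ddt, D-dopachrome tautomerase (3305 bases in WTLPS and 15705 in KOLPS), Cd300ld5, a CD300 receptor (4295 and 13154), Dusp23, a phosphatase (3747 and 10873), and Tfeb, the activator of lysosomal genes (8978 and 19434), with Ppp1r26, Tcp11, Bmp10, Gif and Rbm34. Dusp23 and Tcp11 were called higher without LPS as well. All of these genes were past 2-fold against genes of like GC content.

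Promoters acetylated in both genotypes could still differ in rank within their list. Saa3, an acute phase protein, stood at percentile 86.0 in WTLPS (8.19-fold) and 1.51 in KOLPS (3.23-fold). Acta2, smooth muscle actin, stood at 98.3 and 16.2, Folr2, a folate receptor of macrophages, at 87.6 and 6.10, and Tlr1, a Toll-like receptor, at 93.5 and 16.2. In the other direction Dusp23 stood at 12 in WTLPS and 91.9 in KOLPS, Traf5, a TNF receptor adaptor, at 12 and 91.2, and Fgd2, an exchange factor of antigen-presenting cells, at 18.0 and 94.4. At Dusp23 the promoter regions of the 2 lists did not meet, and the ranked KOLPS region at Acta2 met no WTLPS region. For these genes the ranks compare different regions of the promoter.

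Most inflammatory cytokine and chemokine genes were acetylated in both genotypes. Of 37 such genes found, 30 promoters were acetylated in both genotypes, Cxcl5 and Cxcl9 in WTLPS only, none in KOLPS only and 5 in neither. The median relative log2 ratio was 0.15, with 1 of 36 genes called lower and none higher, beside the 8.34% and 3.72% of all genes. Tnf was covered over 65399 bases in WTLPS and 62397 in KOLPS, Il1b over 70927 and 62156, and Ccl5 over 87367 and 78990. p65 peaks within 100 kb, summed over the list, numbered 231 in WTLPS and 89 in KOLPS, while the whole p65 lists held 5465 and 1752 peaks. Genes such as Tnf, Lta and Ltb share a window, so the list holds fewer loci than genes and some peaks are counted more than once.

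Among single genes of the list, Il12b, the shared chain of IL-12 and IL-23, was covered over 60612 bases in WTLPS and 19508 in KOLPS, with a promoter of 12.3- and 5.0-fold. It was the cytokine gene called lower (−1.09), but not against genes of like GC content (−0.88). Il6 was covered over 99850 and 48357 bases (−0.53), with 23.7- and 11.7-fold at the promoter, Il23a over 37202 and 19417 (−0.41), and Il12a over 47781 and 17209 (−0.92). Il27, Ebi3, Il10 and Il15 of the same list lay between −0.10 and 0.10. Promoter folds are relative to each library's own background, which differed as given above, so their size is not compared between genotypes. At Il12a and Il10 each genotype had a promoter region, but the regions did not meet. Il1a and Il1f9 stood higher by rank in KOLPS (99.4 against 96.3 and 99.2 against 90.1).

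In the TLR4 and NF-κB pathway 35 of 37 promoters were acetylated in both genotypes, Nfkb1 in WTLPS only (5.01-fold) and Lbp in neither. Covered bases were called lower at 3 of 37 genes, near the 8.34% of all genes, and higher at none. Ly96, which codes for the LPS-binding partner MD-2 of TLR4, was covered over 44396 bases in WTLPS and 9864 in KOLPS (−1.57, and −1.34 against genes of like GC content). Nfkbiz, a nuclear IκB needed for secondary response genes, was covered over 54025 and 16331 (−1.17, and −0.95). Tnip3, an inhibitor of NF-κB signalling, was covered over 49073 and 16472 (−1.02, and −0.28). Tlr4 itself was covered over 25357 and 9472 (−0.83), while Rela stood at 20318 and 22921 (0.66) and Cd14 at 36551 and 34708 (0.42).

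Among interferon genes 27 of 29 promoters were acetylated in both, with Oas2 and Ifi44 in WTLPS only. Ifnb1, the gene of interferon beta, was called lower, with 12887 bases in WTLPS and 1291 in KOLPS (−2.10, and −1.58 against genes of like GC content), and its promoter stood at 8.19- and 5.0-fold. Without LPS it was covered over 6795 bases in WT and 1101 in KO. The median of the list was −0.10.

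In antigen presentation all 26 promoters were acetylated in both genotypes, and the median was −0.03. H2-Ab1 was covered over 106522 bases in WTLPS and 73882 in KOLPS, Ciita, the activator of MHC class II genes, over 99264 and 63307, and Cd80 over 106426 and 68808. Cd1d1, which presents lipids to NKT cells, was called lower (33317 and 8444, −1.36). Ccr7, the receptor that guides dendritic cells to lymph nodes, stood at 25.5- and 7.24-fold at the promoter, with a relative covered ratio of 0.15.

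In GM-CSF and STAT5 signalling 17 of 18 promoters were acetylated in both. Csf2rb, the signalling chain of the GM-CSF receptor, was covered over 66877 bases in WTLPS and 67204 in KOLPS, Jak2 over 100881 and 56822, and Stat5a over 29309 and 22956. Myc was called higher (3774 and 6415, 1.13), and Bcl6 had no promoter region in either list.

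Of the myeloid transcription factors 3 of 26 were called higher, beside 3.72% of all genes, namely Runx1, Maf (1206 and 3245 bases) and Rxra (1959 and 3699). Against genes of like GC content 2 of them were higher, as Rxra lay within 2-fold (0.66). Promoters of Runx3, Maf and Nr4a1 were acetylated in KOLPS only and those of Bhlhe41 and Pparg in WTLPS only. Spi1, the gene of PU.1, was covered over 31209 and 29683 bases, Irf4 over 67373 and 34476, Irf8 over 42601 and 26060, Cebpb over 56257 and 74634 and Zbtb46 over 46225 and 17281 (−0.87).

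Of 23 genes in the AP-1 list, Fosb, Fosl1 and Egr1 had promoters acetylated in KOLPS only, at 4.44- to 5.55-fold, beside 3.78% of all genes. None was WTLPS only, and no gene was called. Among 22 genes in the list of LPS-induced enzymes the promoters of Ido1 and Ptges were WTLPS only, beside 4.27% of all genes. Slc7a2, an arginine transporter (20148 and 5871), and Aldh1a2, which makes retinoic acid (26097 and 8552), were called lower, and Slc2a1, the glucose transporter, higher (13659 and 21520). None of these 3 was past 2-fold against genes of like GC content. Over all genes 8.34% were called lower and 3.72% higher.

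Of 23 migration receptors Itga4, the integrin alpha4 chain, was called lower (65575 and 15653, −1.50, and −0.76 against genes of like GC content) and Cd81 had a promoter region in KOLPS only. Of 29 cell cycle genes 4 promoters were WTLPS only (Ccne2, Ccnd1, Plk1, Bub1) and 4 KOLPS only (Ccnb1, Ccne1, Mcm6, E2f1), beside 4.27% and 3.78% of all genes. Of the 26 measured, Bub1 and Cdkn2c were called lower, the latter not against genes of like GC content (−0.56), and Mcm3 higher. Of 18 loop regulators measured, Rad21, a cohesin subunit (4494 and 464), and Stag1 (8190 and 2138) were called lower and Smc1a higher (700 and 2094), all at few bases. Over all genes 8.34% were called lower and 3.72% higher. Stag1 lay within 2-fold of genes of like GC content (−0.53) and kept its call in 3 of 7 alternatives. Of 24 housekeeping promoters 23 were acetylated in both, and Rpl5 was called lower (38722 and 11089, −1.22), but lay within 2-fold of genes of like GC content (−0.85).

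Among the 10 strongest WTLPS-only regions outside promoters were broad regions 39976 bp from the start of Itga1 (chr13:115140118-115145383, 13.2-fold), 35293 bp from Gda, guanine deaminase (chr19:21504006-21510003, 12.3-fold, with CTCF and SMC1 peaks in WTLPS and none in KOLPS), and 12377 bp from Samd9l, an interferon-induced gene (chr6:3384845-3387787, 12.3-fold). The strongest KOLPS-only region of more than 1 kb lay 5382 bp from Zdhhc12 (chr2:30086520-30089141, 13.9-fold). The first 4 KOLPS-only regions by −log10 q were 131 to 167 bp wide. One of them, on chromosome 9, held peaks in 22 of the 30 lists, and the first WTLPS-only region, of 196 bp on chromosome 12, in 20 lists.

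The genome was also read in 2159 windows of 500 kb with at least 10 regions, of which those with the highest shares of 1 class are named. The median window held 41.1% WTLPS-only and 26.1% KOLPS-only regions, and the 90th percentiles were 66.7% and 44.1%. The highest WTLPS-only share was 10 of 10 regions at chr6:14000001-14500000, with 4 CTCF peaks in WTLPS and 1 in KOLPS. Next, with 17 of 18 regions each, were windows on chromosomes 2 (5 and 0 CTCF peaks), 9 (10 and 1) and 10 (1 and 1). The window on chromosome 9 (chr9:83000001-83500000) lies around Hmgn3 and Lca5. The windows with the highest KOLPS-only shares were neighbours, chr12:115000001-115500000 with 27 of 29 and chr12:115500001-116000000 with 53 of 57 regions. They hold immunoglobulin heavy chain V genes and no protein-coding start in the annotation. There CTCF peaks numbered 25 and 41 in WTLPS and 69 and 111 in KOLPS, while the whole lists held 54020 CTCF peaks in WTLPS and 11576 in KOLPS. On chromosome X 33.1% of 801 WTLPS regions were shared, the lowest share among the chromosomes, and 69.2% of 520 KOLPS regions, the highest.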

How the data were processed

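Per the labels, chromatin was immunoprecipitated, tagmented and sequenced as read pairs, and the submitters' processing notes name BWA 0.7.12, Picard 1.77, MACS2 2.1.2, deepTools 3.1.3 and the mm10 build. The study's methods give other versions. The methods describe calling for each sample and replicate, and the study's reporting summary says that replicates were merged. The lists the authors deposited give per peak a ratio (fold enrichment over local background) and −log10 p-values and q-values, used here to rank peaks within a list. Folds of both lists are printed side by side but rest on different backgrounds. Read totals are not in the lists, so background coverage, to which fragment number and length both add, was recovered as the most frequent background. The whole fragment number that gave back fold and −log10 p within 0.002 was found for all but 1 WTLPS peak tested.

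Peaks at most 500 bp apart were merged, and regions with at least 1 shared bp matched. Promoters reached 2.5 kb and windows 100 kb to either side of the longest transcript's start (GENCODE vM21). Genes needed 2000 covered bases in 1 list. Motifs were searched on both strands in 300 bases at the strongest summit, from the GRCm38 sequence of RefSeq. All 30 lists were used, 2 of them to define classes. The members and gene lists were chosen with earlier results of these data known. Named genes were list members, the 10 strongest promoter genes and other regions of each class by −log10 q, the 10 largest changes in covered bases (at least 10000 bases, 1 per 200 kb) and in percentile, and 5 windows of 500 kb per class. Cxcl11, Mx2 and Znf143 were not found by these symbols. No test between genotypes was made, since each condition has 1 list. Intervals are 95% Wilson intervals. The overlap, covered-base and fragment recovery steps were tested on simulated data. Python 3.11.15, pandas 2.3.3, scipy 1.17.1 and pysam 0.24.0 were used. Alternatives were other merging, matching, thresholds, promoters and windows, and WTLPS with fragments thinned to the lower coverage. Matching genes on GC content, and leaving out chromosomes X and Y for covered bases, were added after the data were seen. Named sites and promoter genes whose own region was unshared were also chosen then.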

Additional observations from a re-analysis of the deposited data

How the results depend on the processing

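With 1 list per genotype, and no read counts, differences below the sizes given cannot be told from library differences. No paired analysis was possible because each condition has 1 list and the labels carry no replicate numbers. The values below come from 1 change at a time, and the causes were not tested. In each of the 7 region alternatives the classes kept the order shared, WTLPS only, KOLPS only. This held for the shares with CTCF, SMC1 and p65 peaks of the class's own condition (16.8, 7.03 and 1.37% for CTCF as reported). KOLPS-only regions were set there against the KOLPS factor lists, which were shorter, so their place in this order does not compare the classes. In the KOLPS lists SMC1 lay in 3.00% of WTLPS-only and 3.47% of KOLPS-only regions, p65 in 0.0490% and 0.330%, and CTCF in 1.41% and 1.37%. In the WTLPS lists each factor was more frequent in WTLPS-only than in KOLPS-only regions.

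Where peaks were merged only where they touch, 41.2% of WTLPS and 64.3% of KOLPS regions were shared. CTCF lay in 12% of shared and 6.50% of WTLPS-only regions, SMC1 in 41.5% of shared and 4.06% of KOLPS-only regions, and p65 in 10.9% of shared, 0.861% of WTLPS-only and 0.444% of KOLPS-only regions. With merging within 1000 bp the shares were 46.4% and 60.4%, CTCF 20.7% of shared and 7.67% of WTLPS-only regions, SMC1 54.4%, 13.9% and 3.89% of the 3 classes, and p65 16.8% of shared and 0.920% of WTLPS-only regions. Where 50% of the shorter region had to be shared, the shares were 38.4% and 54.2%, with CTCF in 17.7% and p65 in 15.4% of shared regions, and SMC1 in 51.1%, 13.3% and 3.97% of the classes. Where regions within 500 bp also matched, they were 50.4% and 69.3%, with CTCF in 15.2% and p65 in 12.1% of shared regions, and SMC1 in 43.3% of shared and 12.2% of WTLPS-only regions.

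Peaks with a −log10 q of 5 or more gave 12181 shared, 10510 WTLPS-only and 7024 KOLPS-only regions, so 53.7% and 68.5% were shared. In these classes CTCF lay in 21.0%, 9.86% and 2.14%, SMC1 in 63.4%, 27.7% and 9.85%, and p65 in 22.1%, 3.29% and 1.21%. After WTLPS fragments were thinned by the background ratio, which does not change their length, 43.8% and 58.2% were shared, and SMC1 lay in 13.1% of WTLPS-only regions. Without chromosomes X and Y none of the 16 class and gene-call values moved, and of 25 list values 1 did, since Smc1a, the gene called higher among loop regulators, lies on X and left the list with 0.

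With promoters of 1 kb, 36% of shared, 7.97% of WTLPS-only and 10.5% of KOLPS-only regions lay at promoters, and with all transcript starts 49.2%, 21.9% and 27%. Counts of genes called stayed within 1.5 times, except 306 higher with at least 5000 covered bases and 683 lower against genes of like GC content, the latter an alternative added after the data were seen. Among genes named for their covered bases, none changed direction in any alternative, and 11 of 40 fell within 2-fold of genes of like GC content.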

Other observations

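The windows over the immunoglobulin heavy chain V genes (chr12:115000001-116000000, with 37 V genes and 21 V pseudogenes by the annotation) differed between the genotypes in the lists of several antibodies. H3K27ac peaks there numbered 6 in WT and 6 in WTLPS, but 94 in KO and 107 in KOLPS. CTCF peaks numbered 76, 66, 188 and 180 in the same order, SMC1 peaks 61, 53, 223 and 204, and p65 peaks 0, 1, 49 and 62. STAT5 peaks numbered 5 in WT and 150 in KO, and H3K27me3 peaks 13, 3, 116 and 82. H3K4me1 peaks were more alike, at 93, 90, 110 and 112. These V genes resemble one another in sequence, so the peaks of single genes are uncertain.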
